A study of Mus musculus with 13 samples.

Results

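The SLC25 genes encode the mitochondrial carriers, the largest family of small-molecule transporters of the inner mitochondrial membrane. Members were all protein-coding genes of the mouse annotation GENCODE M21 whose symbol is Slc25a followed by a number. There are 47 such genes, of which 39 were among the 13201 genes of the expression table. All 39 passed the filter on low values and were tested among 12846 genes. The other 8 (Slc25a2, Slc25a18, Slc25a21, Slc25a31, Slc25a34, Slc25a41, Slc25a48 and Slc25a54) were not analysed here.

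Expression was measured by RNA-seq of polyadenylated RNA from hematopoietic stem cells (HSCs) sorted from mouse bone marrow, with 100 cells in each Smart-seq2 library. Of the 13 libraries, 3 came from untreated wild-type (WT) mice (D1, D2 and D3) and 3 from untreated knockout (KO) mice (D4, D5 and D6). A further 4 came from WT mice treated with 5-fluorouracil, or 5-FU (A2 to A4 and D4), and 3 from 5-FU-treated KO mice (A5, A6 and A8). KO cells are described as deficient in MEK1, an ERK-activating kinase that is the product of Map2k1, and 5-FU is a cytotoxic drug that depletes dividing marrow cells. The strain, the age of the mice, the driver of the deletion, and the dose and timing of 5-FU are not stated in the labels.

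Carriers of this family let metabolites cross the inner membrane in exchange for, or together with, another solute. The ADP/ATP carriers bring ADP into the matrix and release ATP, and the phosphate carrier brings in the phosphate from which ATP synthase makes it. Other members move citrate and other carboxylates, amino acids, acylcarnitines, nucleotides, cofactors, glutathione and iron. Resting HSCs are known for a low reliance on mitochondrial ATP production, and HSCs that are driven to divide after 5-FU are known to raise it.

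The genomic sequences just upstream of 3 carriers are shown because results below turn on them: Slc25a5 and Slc25a3 are the most abundant carriers and both were higher in KO cells after 5-FU, and Slc25a29 was nearly absent from WT libraries. Each is the stretch of the RefSeq promoter window (build GRCm38.p6) that lies outside annotated exons, written 5′ to 3′ on the strand of the gene. Capitals mark matches to the ETS core CCGGAAG, the box CCAAT or the GC box GGGCGG, on either strand.
Slc25a5, chrX:36795347-36795596, plus strand: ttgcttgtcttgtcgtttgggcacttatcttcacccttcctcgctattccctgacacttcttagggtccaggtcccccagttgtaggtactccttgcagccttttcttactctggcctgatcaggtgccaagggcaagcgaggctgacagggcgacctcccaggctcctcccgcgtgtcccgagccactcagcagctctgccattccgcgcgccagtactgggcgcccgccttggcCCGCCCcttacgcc
Slc25a3, chr10:91124060-91124217, minus strand: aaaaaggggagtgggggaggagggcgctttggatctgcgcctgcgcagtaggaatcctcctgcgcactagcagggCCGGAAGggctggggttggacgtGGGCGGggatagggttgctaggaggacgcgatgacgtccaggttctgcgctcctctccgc
Slc25a29, chr12:108835884-108836045, minus strand: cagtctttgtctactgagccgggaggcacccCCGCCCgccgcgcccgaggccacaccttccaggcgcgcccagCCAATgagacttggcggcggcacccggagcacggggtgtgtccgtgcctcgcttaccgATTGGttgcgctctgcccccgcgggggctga

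The Slc25a29 stretch is the whole interval between the start of Slc25a29 and the start of Slc25a47, another carrier gene that runs the other way. It held 2 CCAAT matches and 1 GC box, and the Slc25a5 stretch held 1 GC box. The Slc25a3 stretch held 1 ETS core and 1 GC box. A stretch of Slc25a4, also higher in KO after 5-FU, was only 28 bases long, held no match and is not printed. The RefSeq start used for Slc25a5 was not found near the start of its GENCODE transcripts. Its stretch ends before the annotated gene start, 36795651. An E-box (CACGTG), an NRF1 core (GCATGCGC) and a CRE (TGACGTCA) were also searched on both strands and had no match in these windows. Among 32851 RefSeq promoters cut to the same offset and length, a GC box was present in 32.7% for the Slc25a5 stretch, 17.8% for Slc25a3 and 28.6% for Slc25a29. An ETS core was present in 2.76% at the Slc25a3 length, and a CCAAT box in 25.9% at the Slc25a29 length. A match describes letters only.

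Read totals were 11416753 to 25380570 in 12 libraries and 45384866 in untreated WT D1, so that 3 reads correspond to a normalized count of 0.979 to 4.35. Map2k1 was at 905, 1116 and 1766 normalized counts in untreated WT libraries and at 611, 749.8 and 545 in untreated KO libraries. After 5-FU it was at 604, 1634, 584 and 1573 in WT and at 328, 459.9 and 304 in KO, and it was lower in KO after 5-FU (adjusted p = 0.0339, limma) but did not pass in untreated cells (adjusted p = 0.460, limma). WT libraries A3 and D4 after 5-FU correlated with each other at r = 0.988 over genes, against 0.912 to 0.943 for the other pairs within the untreated and 5-FU WT groups and 0.966 to 0.977 within 5-FU KO, so results after 5-FU were also computed with A3 and D4 averaged. The series' design text counts 1 technical replicate without naming its library, and whether A3 and D4 share a source is not stated, so n = 4 for 5-FU WT counts libraries. D4 was acquired on another flowcell and in an earlier year than the other 5-FU libraries, together with the untreated ones. All 10 HSC markers were in the table, with a summed normalized count of 20140.3 to 28156 in untreated libraries, 12547 to 17357 in 5-FU WT and 8636 to 9493 in 5-FU KO libraries. Megakaryocyte markers (6 of 6 in the table) summed to 28448 to 50439 in 5-FU WT libraries and to 3266 to 6712 in all others. Nothing in the labels says that libraries came from separate mice, and the p-values thus reflect only how far these libraries scatter.

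The quantities used below are a normalized count (reads divided by the library's size factor) and a log2 difference, taken between group means on the variance-stabilized scale, which compresses changes of low counts. Levels are compared between genes only as normalized count per kilobase of transcript. By that measure Slc25a5, which encodes the ADP/ATP carrier ANT2, was the most abundant member, at 14564 per kilobase over all 13 libraries. Slc25a3, the phosphate carrier, followed at 7503, then Slc25a11, the oxoglutarate carrier, at 2632 and Slc25a4, the ADP/ATP carrier ANT1, at 2465. Next came Slc25a17, a carrier of cofactors in peroxisomes, at 1722, and Slc25a39, which supports glutathione import, at 1069.6. The lowest were Slc25a29 at 18.7, Slc25a25 at 17.1 and Slc25a47 at 16.9 per kilobase. These means pool groups that differ: Slc25a29 was at 0 per kilobase in untreated WT and 49.98 in untreated KO, and Slc25a47 at 45.1 in untreated WT and 3.96 in untreated KO. Slc25a11 and Slc25a4 did not keep their order: in KO after 5-FU Slc25a4 was at 3096 and Slc25a11 at 2232, and in WT after 5-FU at 1739.5 and 2725. Slc25a11 overlaps Rnf167 on the opposite strand, and reads from shared bases cannot be told apart. The same holds for Slc25a25 with Naif1, Slc25a53 with Zcchc18 and Slc25a23 with Crb3. Whether their exons overlap, and by how much, was not measured.

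**Figure D1:**
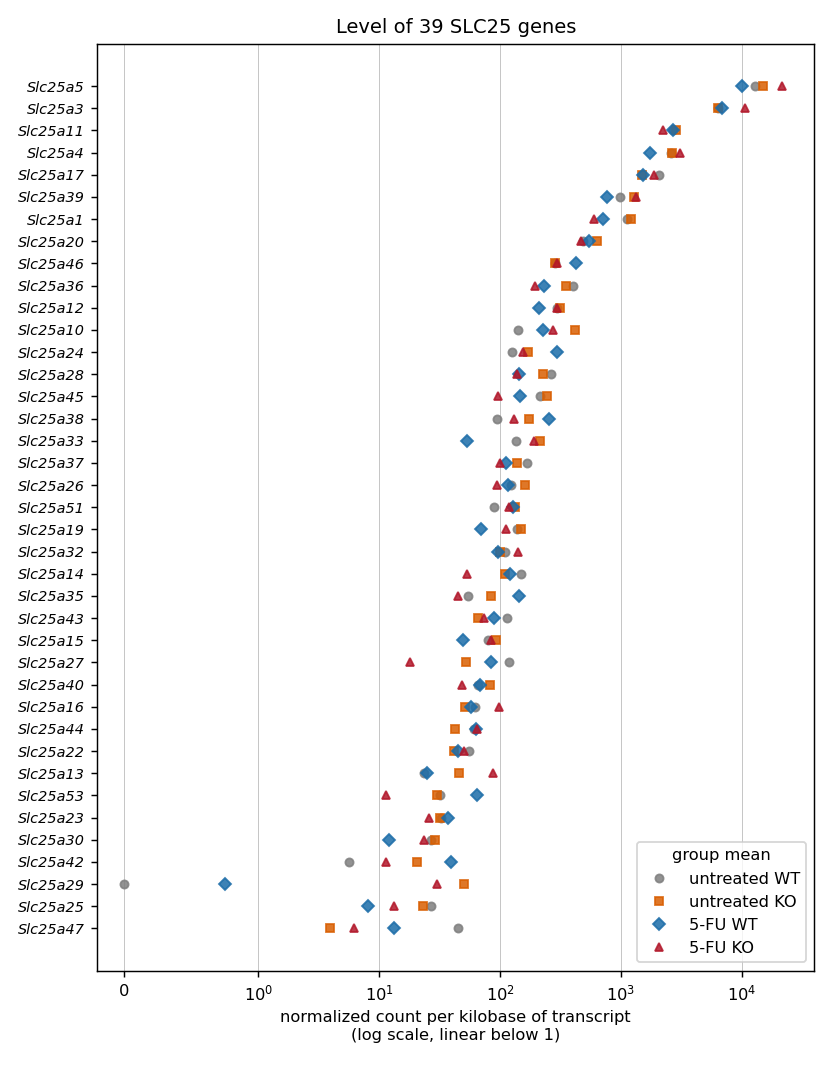
Mean normalized count per kilobase of transcript (log axis, linear below 1) of the 39 SLC25 genes in each of the 4 groups, ordered by their mean over all libraries. Slc25a5 and Slc25a3 lead in every group, and Slc25a29, with the widest spread between groups, lies at 0 in untreated WT and at 49.98 in untreated KO.

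The adenine nucleotide and phosphate carriers Slc25a3, Slc25a4 and Slc25a5 together held 66.9% ± 4.40 (SD, n = 3) of the summed per-kilobase level of all members in untreated WT libraries. The share was 67.8% ± 2.93 (SD, n = 3) in untreated KO and 65.9% ± 1.30 (SD, n = 4) in WT after 5-FU. It was 78.8% ± 1.80 (SD, n = 3) in KO after 5-FU, where the lowest library, at 76.7%, lay above the highest library of the other groups, at 71.8%. These 3 genes were grouped with earlier results of these data known, so the share is a description.

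The first comparison asked which carriers differ between KO and WT HSCs after 5-FU. Of the 39 members, 5 were called (adjusted p below 0.05) and all 5 were higher in KO: Slc25a5, Slc25a3, Slc25a4, Slc25a29 and Slc25a39. That is 12.8% of the members against 10.9% of all 12846 genes, a share near the background, and 5.36% of all genes were called as higher. The groups did not overlap for 13 of 39 members, where 27.0% of all genes did not overlap. The median log2 difference of the members was -0.05, against -0.02 over all genes tested. The 3 adenine nucleotide and phosphate carriers in the table were each called, and 2 of the other 36 members were, 5.56% of them. This split was made with earlier results of these data known, so it describes the same 5 calls and adds no test.

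Slc25a5 (chrX:36795651-36798807, plus strand, GRCm38) was at 13725, 12744, 11272 and 12508 normalized counts in the 4 treated WT libraries (A2, A3, A4, D4) and at 25598, 26296 and 28987 in the KO libraries A5, A6 and A8. The lowest KO library was far above the highest WT library. The means were 12562 ± 1009 (SD, n = 4) and 26961 ± 1789.5 (SD, n = 3), a 2.15-fold higher level in KO (log2 difference 1.08, SE 0.12, limma adjusted p = 3.03e-05). ANT2 is the ADP/ATP carrier form typical of proliferating cells. Pseudogene copies of Slc25a5 exist in the mouse genome, and how reads that match several copies were counted is not given in the sources at hand.

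Slc25a4 (chr8:46206797-46211284, minus strand) was at 3489, 3642, 3324 and 2939.8 in WT and at 5294, 5777 and 6809.7 in KO after 5-FU, with every KO library above every WT library. ANT1, which it encodes, is the form that dominates in heart and skeletal muscle. The KO level was 1.78-fold that of WT (log2 difference 0.76, SE 0.15, limma adjusted p = 0.00364).

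Slc25a3 (chr10:91116574-91124059, minus strand) was at 10467, 11383, 9951 and 12724 in WT and at 18623, 16602 and 16151 in KO after 5-FU. Again the lowest KO library lay above the highest WT library, here D4. The KO level was 1.54-fold that of WT (log2 difference 0.61, SE 0.12, limma adjusted p = 0.00279). Summed over Slc25a5, Slc25a4 and Slc25a3, normalized counts were 27042 ± 1677 (SD, n = 4) in WT and 50046 ± 1699.8 (SD, n = 3) in KO, which restates the differences of the 3 genes. The sum over the other 36 members was 22049.9 ± 1297 (SD, n = 4) in WT and 21778 ± 3007 (SD, n = 3) in KO, a difference smaller than the spread. That sum is weighted towards members with high counts, such as Slc25a11 (4662 in WT, 3818 in KO) and Slc25a17 (2619 and 3255). It does not show that single members were unchanged. Of the 36, 2 were called and 10 had groups that did not overlap, where 27.0% of all genes did not overlap.

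**Figure D2:**
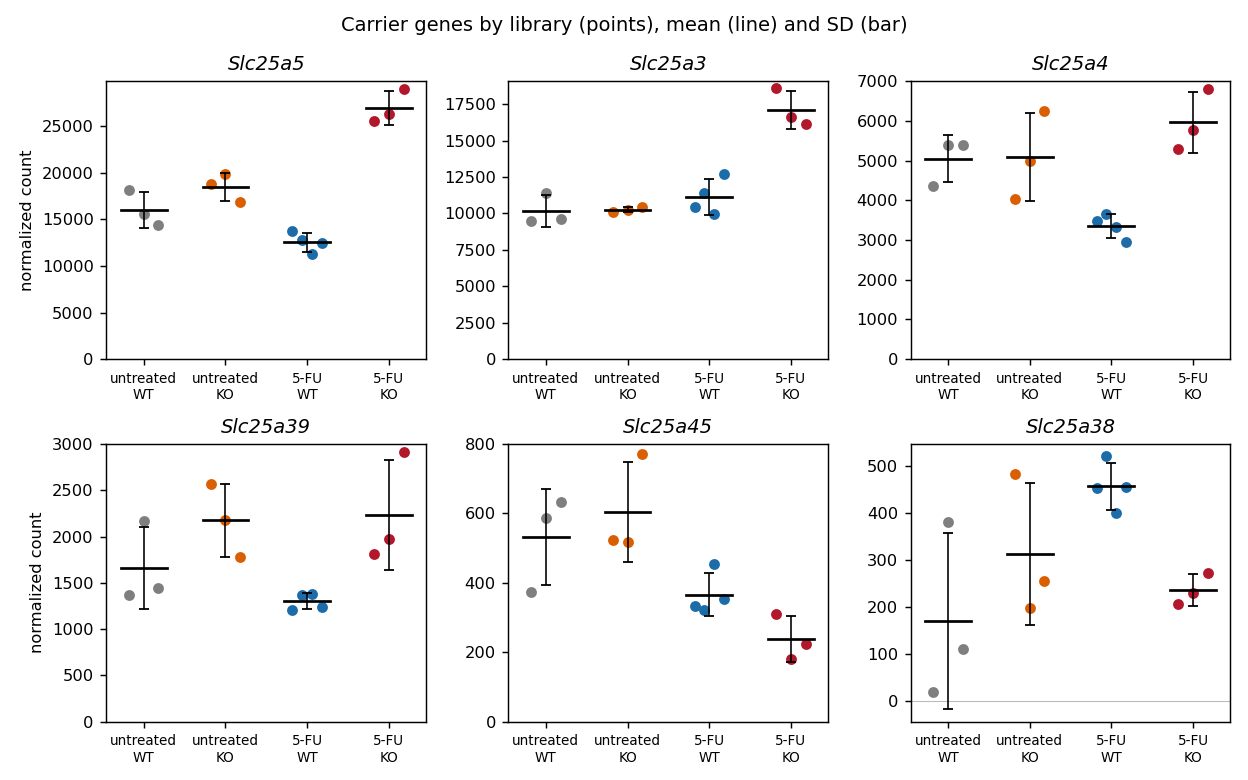
Normalized counts of Slc25a5, Slc25a3, Slc25a4, Slc25a39, Slc25a45 and Slc25a38 in each library (points) of the 4 groups, with the group mean (horizontal line) and SD (error bar), on linear axes that differ between panels. The 3 KO libraries after 5-FU lie above all 4 WT libraries after 5-FU for Slc25a5, Slc25a3, Slc25a4 and Slc25a39.

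Slc25a39 (chr11:102402985-102407946, minus strand), which supports import of glutathione into mitochondria, was at 1208, 1373, 1384 and 1244 in WT and at 1815, 1970.3 and 2918 in KO after 5-FU. The WT libraries were close together and the KO libraries were all above them, with A8 the highest. The KO level was 1.72-fold that of WT (log2 difference 0.62, SE 0.18, limma adjusted p = 0.0402). This call was lost when any 1 of the 7 libraries was left out, with A3 and D4 averaged, with the acquisition date as a term and in limma-voom, and the adjusted p over the 23 alternatives ran from 0.0281 to 0.211. WT D4 is the only 5-FU library of the earlier date, so the date term here nearly repeats the fit without it. Slc25a40, a close relative of Slc25a39, was at 97.2, 177, 336 and 155 in WT and at 65.8, 239 and 100.2 in KO, overlapping ranges that did not pass (limma adjusted p = 0.700).

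Slc25a29 (chr12:108825873-108835883, minus strand), a carrier of basic amino acids, separated the libraries labelled KO and WT with and without 5-FU. The strain behind either genotype is not stated in the labels, so a difference between strains and one between genotypes cannot be told apart. It was at 0 in all 3 untreated WT libraries and at 82.9, 123 and 89.9 normalized counts in the untreated KO libraries. After 5-FU it was at 0, 1.45, 3.80 and 0.664 in WT and at 16.1, 69.6 and 92.4 in KO. In reads, the 7 WT libraries held 6 in all, with at most 4 in any of them, and the 6 KO libraries held 468. Every KO library was above every WT library, which was so for 59 of the 12846 genes tested (0.459%) and for 1 of the 39 members. The untreated KO mean of 98.8 ± 21.7 (SD, n = 3) was at least 38.9-fold higher than the mean floor of 3 reads per library in untreated WT, 2.54.

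On the variance-stabilized scale the KO minus WT difference of Slc25a29 was 0.59 after 5-FU (SE 0.15, limma adjusted p = 0.0198) and 0.89 in untreated cells (SE 0.16, limma adjusted p = 0.0644), so it passed only after 5-FU. The difference between the 2 was not itself past the threshold (interaction -0.30, SE 0.22, limma adjusted p = 0.538). In treated cells it missed the threshold without A6, A8, A3 or D4, with A3 and D4 averaged and with the acquisition date as a term, with adjusted p from 0.0102 to 0.110 over the 23 alternatives. Here too the date term nearly repeats the fit without D4. In untreated cells the adjusted p ran from 0.0473 to 0.572, and the gene was called with a log2 pseudocount of 1 and with TMM scaling.

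The genes beside Slc25a29 did not share this split. Slc25a47, whose start faces that of Slc25a29 across the interval printed above, was at 81.9, 131 and 1.06 in untreated WT and at 1.84, 0 and 16.9 in untreated KO libraries. After 5-FU it was at 0, 0, 84.6 and 0 in WT and at 0, 29.5 and 0 in KO, and it passed in no comparison. Yy1, a transcription factor gene next to the pair, had overlapping ranges in both treatments. Wars, the tryptophanyl-tRNA synthetase gene on the other side, was higher in KO after 5-FU (344 against 1356, log2 difference 1.34, limma adjusted p = 7.57e-04) but its ranges overlapped in untreated cells.

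**Figure D3:**
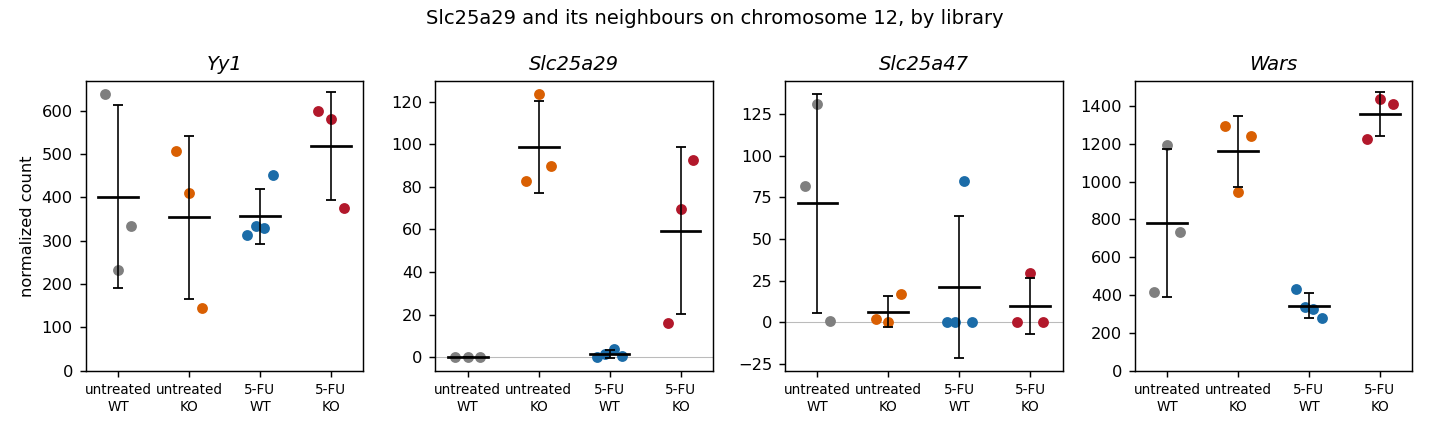
Normalized counts of Yy1, Slc25a29, Slc25a47 and Wars, neighbouring genes on mouse chromosome 12, in each library (points) of the 4 groups, with group mean (line) and SD (error bar). Slc25a29 is at or near 0 in all 7 WT libraries and at 16.1 to 123 in the 6 KO libraries, and the other genes show no such split over both treatments.

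Among the remaining members, the pyrimidine nucleotide carrier Slc25a33 came closest to a call after 5-FU, at 237, 36.2, 107 and 19.9 in WT and 438, 213 and 432 in KO (log2 difference 0.89, limma adjusted p = 0.0533). Its highest WT library, A2, lay above its lowest KO library, A6. It was called without A2 or untreated WT D2 or D3, with quantile normalization, and with a stricter filter (a normalized count of 50 in 3 libraries). Its adjusted p ran from 0.0167 to 0.188 over the 23 alternatives. Slc25a27, an uncoupling protein-like carrier, was at 174, 298, 243 and 262 in WT and 33.6, 16.5 and 105 in KO, without overlap (log2 difference -0.83, limma adjusted p = 0.0551). It was called in 7 of 23 alternatives, with adjusted p from 0.0173 to 0.217. These included the fits without untreated WT D1 or D3 and the stricter filter. The others were a log2 pseudocount of 1 or 5, TMM scaling and the 5-FU groups alone. Slc25a35, of unassigned substrate, was at 299.7, 322, 142 and 284 in WT and 53.7, 89.6 and 104 in KO (log2 difference -0.64, limma adjusted p = 0.0643), and it was called without WT A4 (adjusted p from 0.0372 to 0.228 over the alternatives). The gene overlaps Rangrf on the opposite strand, and Smart-seq2 libraries carry no strand. Reads from bases shared by the pair therefore cannot be told apart, and the extent of the overlap was not measured.

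None of the 7 cofactor carriers in the table was called after 5-FU (median log2 difference 0.26), nor were the 3 di- and tricarboxylate carriers (median -0.20), the 3 aspartate and glutamate carriers (median 0.40) or the 3 ATP-Mg/phosphate carriers (median -0.11). The aspartate/glutamate carrier Slc25a13 was at 59.0, 78.2, 75.1 and 101 in WT and at 138, 159 and 516 in KO, without overlap but with 1 KO library, A8, far above the others (limma adjusted p = 0.170). Its paralog Slc25a12 was at 1244, 1278, 1735 and 1079 in WT and 1497, 1626 and 2556 in KO, with overlap (limma adjusted p = 0.241), and the glutamate carrier Slc25a22 at 62.5, 143, 93.2 and 211 in WT and 165, 123 and 139 in KO (limma adjusted p = 0.861). The mitoferrins Slc25a28 and Slc25a37, which import iron for heme and iron-sulfur cluster synthesis, were called in no comparison. After 5-FU, Slc25a37 was at 218, 591, 474 and 596 in WT and 357, 393 and 501 in KO, and Slc25a28 at 96.0, 294, 171 and 314 in WT and 172, 233 and 235 in KO, with overlapping ranges for both.

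Markers of other cells moved along with genotype after 5-FU. Of all 12846 genes, 10.9% were called in this comparison, 689 as higher and 706 as lower in KO. Of 6 megakaryocyte markers 5 were lower in KO, and their summed normalized count was 28448 to 50439 in WT and 3934 to 6712 in KO libraries. Erythroid markers were lower for 3 of 8 tested, with sums of 5551 to 6827 in WT and 3632 to 4171 in KO. Neutrophil markers were lower for 4 of 6, with sums of 3998 to 5782 in WT and 2247 to 2389.6 in KO, where Lcn2 and Mpo were at 0. Mast cell markers (2 of 4 in the table) were lower for 1 of 2, with sums of 1875 to 2257 in WT and 249.98 to 666 in KO. Macrophage markers were called for none of 3, with sums of 49.2 to 278 in WT and 197 to 436 in KO. Of 10 HSC markers 3 were lower and 1 was higher in KO. The part of these in the carriers' differences was not tested, and in bulk libraries more cells of a type and more RNA per cell cannot be told apart.

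In untreated cells none of the 39 members was called between KO and WT, in limma or in limma-voom on recovered reads, against 0.0311% of all genes. In limma 2 members had an unadjusted p below 0.05 and 3 had groups that did not overlap, where 11.5% of all genes did not overlap. The median log2 difference was 0.08, against 0.00 over all genes. Slc25a10, the dicarboxylate carrier, was at 186, 353 and 318 in WT and at 976, 411 and 1127 in KO libraries (log2 difference 0.91, SE 0.29, limma adjusted p = 0.306). Its lowest KO library was above its highest WT library. The most abundant carriers had overlapping ranges: Slc25a5 was at 18173, 15575 and 14351 in WT and 18839, 19848 and 16862 in KO. Slc25a3 was at 9452, 11409 and 9654 in WT and 10120.3, 10228 and 10466 in KO, and Slc25a4 at 4371, 5389 and 5385 in WT and 4036, 4978 and 6257 in KO.

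**Figure D4:**
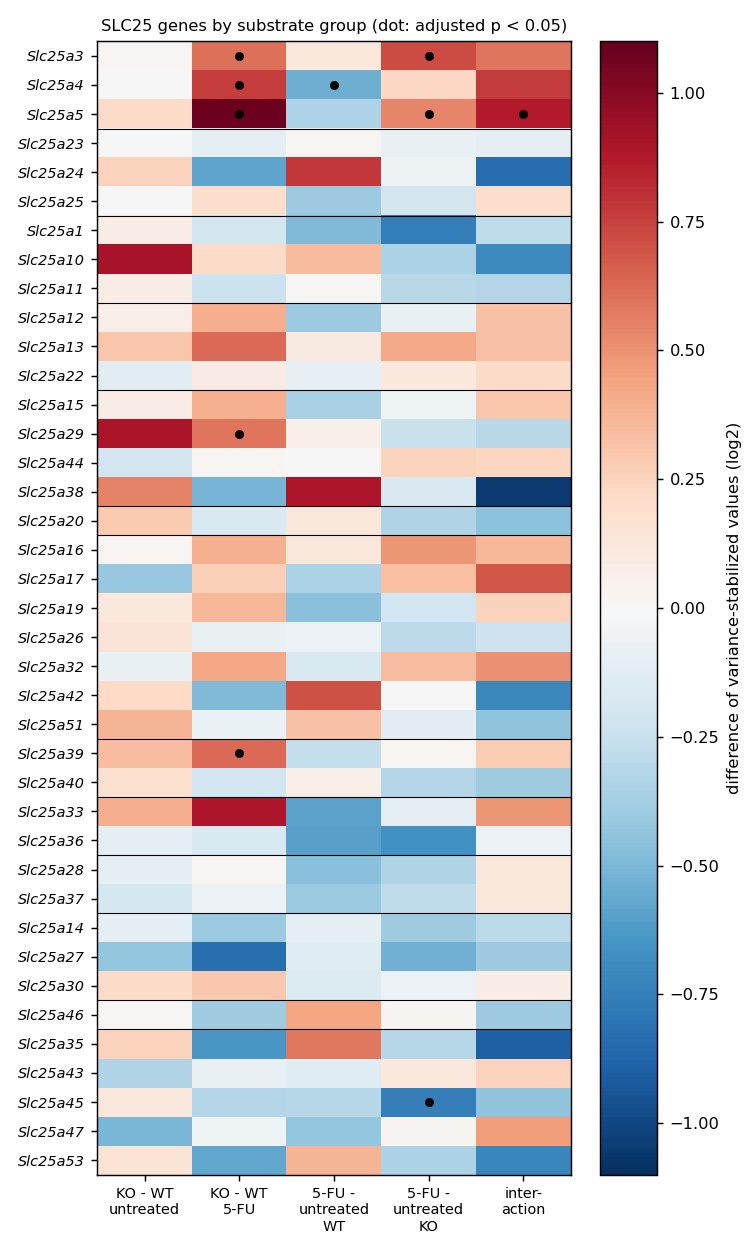
Log2 differences (colour, variance-stabilized scale) of the 39 SLC25 genes in the 5 comparisons, with a dot where the adjusted p was below 0.05. No dot stands in the untreated KO minus WT column, and 5 stand in the column after 5-FU.

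The next comparisons asked how 5-FU changed the carriers within each genotype. They share the 5-FU libraries with the comparison above, so their values are given side by side and not as independent results. Acquisition date goes almost entirely with treatment, and only WT library D4 after 5-FU was acquired with the untreated libraries. In KO the effect of 5-FU and that of the date therefore cannot be told apart within the genotype.

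In WT, 1 of 39 members was called, 2.56% against 6.68% of all genes, and 8 had no overlap where 16.7% of all genes did not overlap. The median log2 difference was -0.10 for the members and 0.00 for all genes. The called gene was Slc25a4, in the direction in which 2.96% of all genes were called (lower). It fell by 0.54 on the log2 scale (SE 0.15, limma adjusted p = 0.0425), from 5049 ± 586 (SD, n = 3) to 3349 ± 302 (SD, n = 4), 1.51-fold lower. All 4 treated libraries, D4 with the earlier date included at 2939.8, lay below all 3 untreated ones. The call held in 11 of 23 alternatives, with adjusted p from 0.0135 to 0.172, and was lost with A3 and D4 averaged, with the date as a term, with the WT groups alone, and without any of the 4 WT libraries treated with 5-FU, untreated WT D2 or D3, untreated KO D5, or 5-FU KO A5 or A6.

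Slc25a38, which imports glycine for heme synthesis, was at 19.6, 379.7 and 112 in untreated WT and at 452, 520.1, 399 and 454 in WT after 5-FU (log2 difference 0.89, SE 0.28, limma adjusted p = 0.0659). The treated libraries were close together and the untreated ones spread widely. Without untreated WT D2, and in limma-voom, it was called, and the adjusted p ran from 0.00807 to 0.373 over the alternatives. Slc25a36, a pyrimidine nucleotide carrier, was at 1446, 1773 and 3037 in untreated WT and at 1331, 1046, 1416 and 1026 after 5-FU (log2 difference -0.60, limma adjusted p = 0.0809). It was called without untreated WT D1, with adjusted p from 0.0271 to 0.323 over the alternatives.

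In KO, 3 of 39 members were called, 7.69% against 5.92% of all genes, and 11 had no overlap where 28.8% of all genes did not overlap. The median log2 difference was -0.10 for the members and -0.01 for all genes. Those higher after 5-FU were Slc25a3 and Slc25a5 and the lower one was Slc25a45, while 2.78% of all genes were called as higher and 3.14% as lower. Slc25a3 rose from 10271 ± 177 to 17125 ± 1317 (SD, n = 3 each), 1.67-fold (log2 difference 0.71, SE 0.13, limma adjusted p = 0.00302). Slc25a5 rose from 18516 ± 1519 to 26961 ± 1789.5 (SD, n = 3 each), 1.46-fold (log2 difference 0.53, SE 0.12, limma adjusted p = 0.0159). In WT the same 2 genes did not pass: Slc25a3 went from 10172 to 11131 and Slc25a5 from 16033 to 12562 (limma adjusted p = 0.580 and 0.0894). The WT groups did not overlap for Slc25a5, and its fall was called with quantile normalization and in limma-voom. Its adjusted p in WT ran from 0.0156 to 0.402 over the alternatives. With the date as a term neither gene was called in KO (adjusted p of Slc25a3 over the alternatives from 0.00229 to 0.101). That term rests on WT library D4 alone. With it, all genes called in KO fell from 357 higher and 404 lower to 4 and 3. The loss of these calls therefore cannot tell date from treatment. Slc25a5 was also not called without 5-FU KO A6 or A8 or untreated KO D6 (adjusted p over the alternatives from 0.00887 to 0.508).

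Slc25a45 (chr19:5877808-5885878, plus strand), of unassigned substrate, fell in KO from 523, 518 and 771 to 312, 182 and 224. Its means were 604 ± 145 and 239 ± 66.4 (SD, n = 3 each), 2.53-fold lower after 5-FU (log2 difference -0.75, SE 0.22, limma adjusted p = 0.0484). It was called in 10 of 23 alternatives, with adjusted p from 0.0337 to 0.634. The call was lost without any 1 of the 6 KO libraries, without A3 or D4 of WT after 5-FU, with these averaged, with quantile normalization, with the KO groups alone, in limma-voom and with the date as a term. Slc25a1, the citrate carrier that exports citrate for lipid synthesis, was at 2889, 1554 and 1576 in untreated KO and at 773, 1068 and 1164 in KO after 5-FU, without overlap (log2 difference -0.76, limma adjusted p = 0.0626), and was called without untreated WT D2 (adjusted p from 0.0365 to 0.700 over the alternatives).

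Over the 5 comparisons 6 members were called at least once and 33 were called in none. Among the latter, Slc25a24, an ATP-Mg/phosphate carrier, was at 556, 295 and 445 in untreated WT and at 1467, 682, 1306 and 583 in WT after 5-FU, without overlap (log2 difference 0.78, limma adjusted p = 0.0819). Slc25a42, a carrier of coenzyme A, was at 8.16, 41.7 and 4.23 in untreated WT and at 120.3, 145, 63.7 and 174 after 5-FU, also without overlap (log2 difference 0.70, limma adjusted p = 0.0936), and it was called without untreated KO D5 (adjusted p from 0.0253 to 0.278 over the alternatives). The carnitine carrier Slc25a20, which brings acylcarnitines to fatty acid oxidation, lay between 726 and 1302 over all 13 libraries. Slc25a51, which imports NAD, lay between 283 and 691, and Slc25a46, an outer membrane member with a part in mitochondrial shape, between 816 and 2518.

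Whether the response to 5-FU differed between the genotypes was tested as an interaction. Of the 39 members 1 was called, against 2.84% of all genes (1.04% with a positive value), and the median log2 interaction was 0.09. The gene was Slc25a5, whose KO minus WT difference was larger after 5-FU than in untreated cells by 0.87 on the log2 scale (SE 0.17, limma adjusted p = 0.0120). Its difference was 0.21 in untreated cells (limma adjusted p = 0.610) and 1.08 after 5-FU. Slc25a4 (interaction 0.76, SE 0.22, limma adjusted p = 0.0750) and Slc25a3 (interaction 0.59, SE 0.17, limma adjusted p = 0.0742) did not pass.

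Genes that work beside the carriers were examined as 6 lists, for KO against WT after 5-FU. The lists were chosen with earlier results of these data known, so their counts are a description. Carriers are made in the cytosol and imported by the TOM and TIM complexes, and of 13 import genes 5 were higher in KO and none lower (median log2 difference 0.29), where 5.36% of all genes were called as higher. Tomm40, the channel of the outer membrane, was at 727, 723, 365 and 726 in WT and 1672, 2173 and 2066 in KO, 3.10-fold (log2 difference 1.26, SE 0.22, limma adjusted p = 0.00133). The WT library A4 was lowest and no KO library came near the WT range. Tomm20, the receptor, and Timm8a1, Timm13 and Timm9, chaperones of the intermembrane space, were the others, with log2 differences of 0.59, 1.02, 0.67 and 0.64.

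Among relatives of the family with other symbols, 1 of 3 tested was called, where 10.9% of all genes were called in either direction. Mtch2, an outer membrane protein of the carrier fold, was at 2089.6 in WT and 4242 in KO, 2.03-fold (log2 difference 0.90, SE 0.15, limma adjusted p = 7.80e-04), and its interaction also passed (0.98, limma adjusted p = 0.0217). Of 15 other mitochondrial channels and transporters 1 was higher, the outer membrane channel gene Vdac2 (log2 difference 0.57), and 1 lower, Sfxn3 (log2 difference -0.86), with a median of 0.24. That is 13.3% called against 10.9% of all genes, a share near the background.

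Of 9 enzymes of the malate-aspartate shuttle and citrate metabolism, which use what the carriers exchange, 4 were higher in KO and none lower (median 0.63), beside the same 5.36% of all genes called as higher. Among them were Mdh2, Cs and Idh2, and Mdh2 was at 9555 in WT and 18659.7 in KO (log2 difference 0.95, limma adjusted p = 7.31e-04). Of 12 one-carbon and proline enzymes tested 4 were higher and none lower (median 0.66), again beside 5.36% of all genes. They were Mthfd2, Gcsh, Mthfd1l and Shmt2, and Mthfd2, of the mitochondrial folate pathway, was at 279 in WT and 1154 in KO, 4.14-fold (log2 difference 1.31, limma adjusted p = 0.00106). Of 11 heme and iron-sulfur enzymes none was higher and 1 was lower, the iron-sulfur assembly gene Isca1 (log2 difference -0.76, limma adjusted p = 0.0127), with a median of -0.11. That is 9.09% called against 10.9% of all genes, again near the background. In untreated cells no gene of the 6 lists was called between KO and WT in limma, where 0.0311% of all genes were called.

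**Figure D5:**
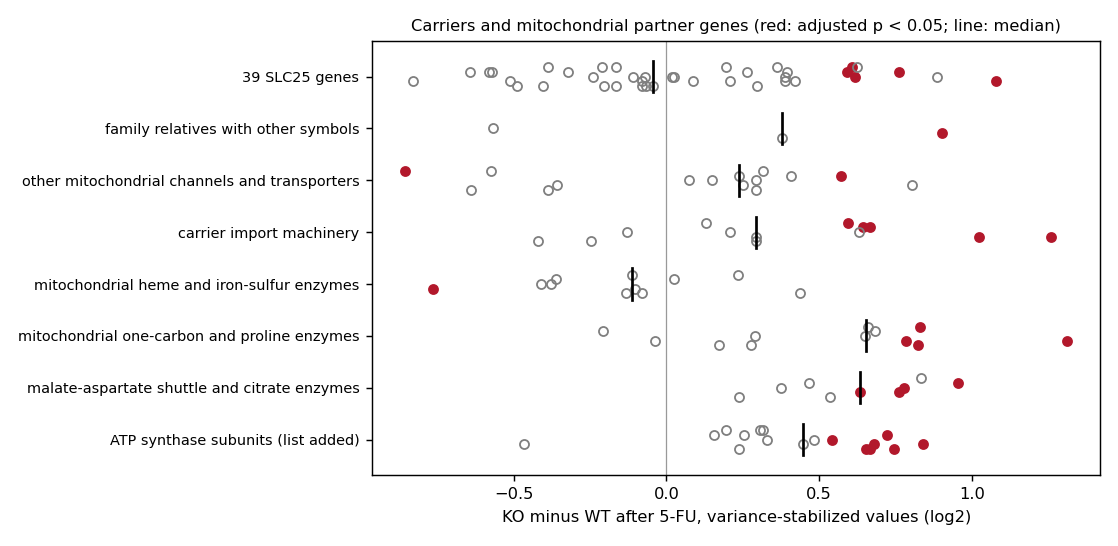
Log2 differences of KO minus WT after 5-FU (variance-stabilized scale) for each of the 39 SLC25 genes and each gene of the 6 partner lists and of an added list of ATP synthase subunits (points), by list, filled red where the adjusted p was below 0.05, with a vertical line at the list's median. Called genes lie above 0 in the import, citrate and one-carbon lists, and the 1 called gene of the heme and iron-sulfur list lies below 0.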

How the data were processed

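The deposited table holds log2-scale values made variance-stable by the authors with DESeq2, after Trimmomatic and Bowtie 1.1.1 on mm10, per the submitters' processing notes. Which counting tool and annotation were used is not given in the sources used here. The transformation was inverted from the value at 0 (7.65) and the steps of low values. Recovered reads were whole within 0.1 for 100% of values in all 13 libraries. Symbols came from GENCODE M21 (13054 of 13201 identifiers matched).

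The deposited log2 values entered limma 3.58.1 (under R 4.3.3) as group means of all 13 libraries, with contrasts and a trended eBayes step (residual df 9, prior df 7.67). The 12846 genes that reached a normalized count of 10 in 3 or more libraries were kept, with Benjamini-Hochberg adjustment at 0.05. Per-library values are given for members that passed with a group mean of at least 50, the 3 smallest p where fewer passed, the most and least abundant members and close paralogs, and a few members near the threshold were added after their values were seen. The script was tested on simulated data. Its libraries were drawn independently and without a date effect, so the likeness of A3 and D4 and the date were not covered. Lists and members were chosen with earlier results of these data known. Values of a few single genes of these lists are not reported here.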

Additional observations from a re-analysis of the deposited data

Results flagged for a closer look

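Slc25a47, a carrier gene of unassigned substrate in these lists, was at 0 in the 5-FU WT libraries A2, A3 and D4 and at 84.6 normalized counts in A4, a gap to the other libraries above Dixon's 95% critical value for 4 samples. The 5-FU WT group was the only one with enough libraries for this comparison, so 39 sets of 4 values were examined and 1 stood out. With A2, A3 and D4 tied at 0, any value above 0 in A4 would have been flagged, so the flag carries no weight. A chance rate of about 1 in 20 sets applies to normally distributed values and not to such ties.

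The KO minus WT difference of Slc25a5, the gene of the ADP/ATP carrier ANT2, was larger after 5-FU than in untreated cells by 0.87 on the log2 scale (SE 0.17, limma adjusted p = 0.0120). All 3 KO libraries after 5-FU were above all 10 other libraries.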

How the results depend on the processing

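The counts of calls and 31 differences of 20 carriers were recomputed under 23 alternatives, 13 of which leave out 1 library. The date term rests on 5-FU WT D4 alone. For KO against WT after 5-FU and for the interaction it nearly repeats the fit without that library. Of these differences 30 kept their sign, and that of Slc25a22 between KO and WT after 5-FU, 0.09, ran from -0.010 (without 5-FU WT A2) to 0.20 (without 5-FU WT D4) when 1 library was left out, none past the threshold. After 5-FU, Slc25a5, Slc25a3 and Slc25a4 were called as higher in KO under all 23, with log2 differences of 1.03 to 1.14, 0.55 to 0.67 and 0.60 to 0.88, and the Slc25a5 interaction was called under all 23 (0.78 to 1.01). The number of carriers called between KO and WT after 5-FU went from 5 to 3 with WT libraries A3 and D4 averaged and to 3 with the acquisition date as a term, and was 3 to 7 when 1 library was left out. Over all genes, 689 higher and 706 lower became 444 and 469 with averaging and 434 and 447 with the date term. When 1 library was left out, 325 to 797 of all genes were higher and 351 to 809 lower. In untreated cells the number of carriers went from 0 to 1 with a pseudocount of 1 and to 1 with TMM scaling, and stayed at 0 when 1 library was left out. Over all genes, 3 higher and 1 lower became 7 and 2 with the pseudocount and 8 and 2 with TMM scaling. When 1 library was left out, 1 to 20 of all genes were higher and 0 to 5 lower. For 5-FU against untreated in WT the number of carriers went from 1 to 2 with quantile normalization, to 4 with limma-voom on the recovered reads, and to 0 with the groups of the comparison alone, with A3 and D4 averaged, and with the date term, and was 0 to 2 when 1 library was left out. Over all genes, 478 higher and 380 lower became 462 and 407 with quantile normalization and 554 and 467 with limma-voom. They became 223 and 192 with the groups alone, 305 and 205 with averaging, and 147 and 72 with the date term. When 1 library was left out, 269 to 548 of all genes were higher and 195 to 450 lower. For 5-FU in KO the number of carriers went from 3 to 0 with the date term and was 1 to 4 when 1 library was left out. Over all genes, 357 higher and 404 lower became 4 and 3 with the date term. When 1 library was left out, 158 to 459 of all genes were higher and 185 to 520 lower. For the interaction the number of carriers went from 1 to 2 with quantile normalization and was 1 to 2 when 1 library was left out. Over all genes, 134 higher and 231 lower became 146 and 237 with quantile normalization. When 1 library was left out, 45 to 187 of all genes were higher and 95 to 289 lower. The causes were not tested. No paired analysis was possible because the groups compared share no library number in the labels. Depth limits the carriers near 3 reads, such as Slc25a29 in WT.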

Other observations

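ATP synthase, the enzyme that uses the phosphate and ADP brought in by the carriers encoded by Slc25a3, Slc25a4 and Slc25a5, was examined as a list of 17 subunit genes chosen after values were seen, so its count is a description. After 5-FU 7 of the 17 were higher in KO than in WT and none was lower in limma, where 5.36% of all genes were called as higher, with a median log2 difference of 0.45 against -0.02 over all genes. The catalytic subunit gene Atp5b was at 34450.5 normalized counts in WT and 55336 in KO, 1.61-fold (limma adjusted p = 0.0181). Atp5g1, a subunit of the membrane ring, was at 5123 and 9372, 1.83-fold (limma adjusted p = 0.00265). In untreated cells none of the 17 was called between KO and WT in limma, where 0.0311% of all genes were called. There 2 had an unadjusted p below 0.05, 15 of the 17 differences were positive, the median was 0.20 against 0.00 over all genes, and 5 had no overlap where 11.5% of all genes did not overlap.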
